A study of Mus musculus with 12 samples.

Results

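The comparison described here is of MedLow with Low, the lower pair of 4 bins into which cells of the mouse circumvallate papilla were divided according to how brightly they carried a Sox2 reporter. Its members are the 3 MedLow and 3 Low libraries, taken by bin from the table of counts, 6 of the 12 libraries of the series. All mice were adults of 11 to 12 weeks with the genotype Sox2GFP, and the bins share that genotype, age and tissue. The epithelium was peeled off with enzymes (collagenase, dispase and elastase), dissociated and sorted for green fluorescent protein (GFP), and cells without GFP were thrown away. Each replicate drew on 7 to 13 mice. The labels name no treatment, sex or sorting day. They leave unstated whether equal replicate numbers share animals, so p-values measure the spread between these libraries.

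The circumvallate papilla sits far back on the tongue and holds many taste buds. Its trenches are lined by a stratified epithelium in which basal progenitor cells divide and give rise both to keratinocytes and to the taste cells of the buds. Basal keratinocytes make the keratins Krt5 and Krt14 and are anchored to the basement membrane by hemidesmosomes, and they switch to Krt4 and Krt13 as they move up. Sox2 is a transcription factor of progenitors and of taste cells. Hedgehog and Wnt signals are known to act on both, and the ducts of von Ebner's salivary glands open into the trenches.

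Levels are given in CPM, a gene's count divided by the total of its library in M after scaling between libraries, for replicates 1, 2 and 3 in that order. A gene was called when edgeR's quasi-likelihood test over all 12 libraries gave a Benjamini-Hochberg adjusted p below 0.05 among the 17432 genes tested, and all adjusted p-values below come from that test unless another is named. Fold changes are log2 of MedLow over Low. Where a call was lost under another setting or without a library, the adjusted p there follows in parentheses. These are bulk samples, so fewer cells of a type and less RNA per cell cannot be told apart.

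Totals ran from 25.7 M to 43.1 M counts in Low and from 39.0 M to 42.5 M in MedLow. Low replicate 2 stood apart, with the smallest total and with 28513 CPM of the ribosomal RNA gene Rn18s, against 9994 and 5670 CPM in Low replicates 1 and 3 and 3108 to 4588 CPM in MedLow. Summed marker RNA of 4 other tissues was higher in Low. Summed over the 8 tested markers of von Ebner's gland, Low libraries had 965 to 2717 CPM and MedLow libraries 354 to 479.7 CPM. The 6 tested fibroblast markers summed to 727 to 782 CPM in Low and 293 to 365 in MedLow, the 7 of neurons and Schwann cells to 113 to 143 and 67 to 83, and the 5 of leukocytes to 28 to 46.6 and 8.18 to 19.7. Most of the fibroblast sum in Low was decorin, Dcn. Of the 6 fibroblast markers, 5 had MedLow libraries below Low, while 1, Fbln1, had them above, beside 27.4% of all genes without overlap in either direction. For the markers of endothelium (5.41 to 7.09 and 2.86 to 6.81), skeletal muscle (0.589 to 1.49 and 0.360 to 0.847), melanocytes (28.4 to 33.6 and 26 to 32.9), erythroid cells (4.26 to 9.20 and 1.13 to 6.02) and Merkel cells (122 to 137 and 136 to 142, Sox2 among them), the summed CPM of Low and MedLow overlapped. The collagen genes Col1a2 and Col3a1 and the T cell and Langerhans cell markers Cd3e and Cd207 were too low to be tested. The part of these tissues in the gene results below was not tested.

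Of the 17432 genes tested, 1127 (6.47%) were called, 691 higher in MedLow (3.96%) and 436 lower (2.50%). Among them 295 were at least 2-fold higher and 180 at least 2-fold lower, and 42 and 29 at least 8-fold, of which 6 and 8 had 0 counts in a bin, where the fitted fold is no bound. The median change of all genes tested was -0.000786. MedLow libraries lay wholly above or wholly below the Low libraries for 4775 genes (27.4%), 2513 above and 2262 below. These shares of all genes are the ones to set beside the counts of each list below. The number called was 730 without Low replicate 1, 718 without Low replicate 3, 702 without MedLow replicate 1, 669 without MedLow replicate 3 and 778 without Low replicate 2, and 1516 with the replicate number as a block.

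**Figure D1:**
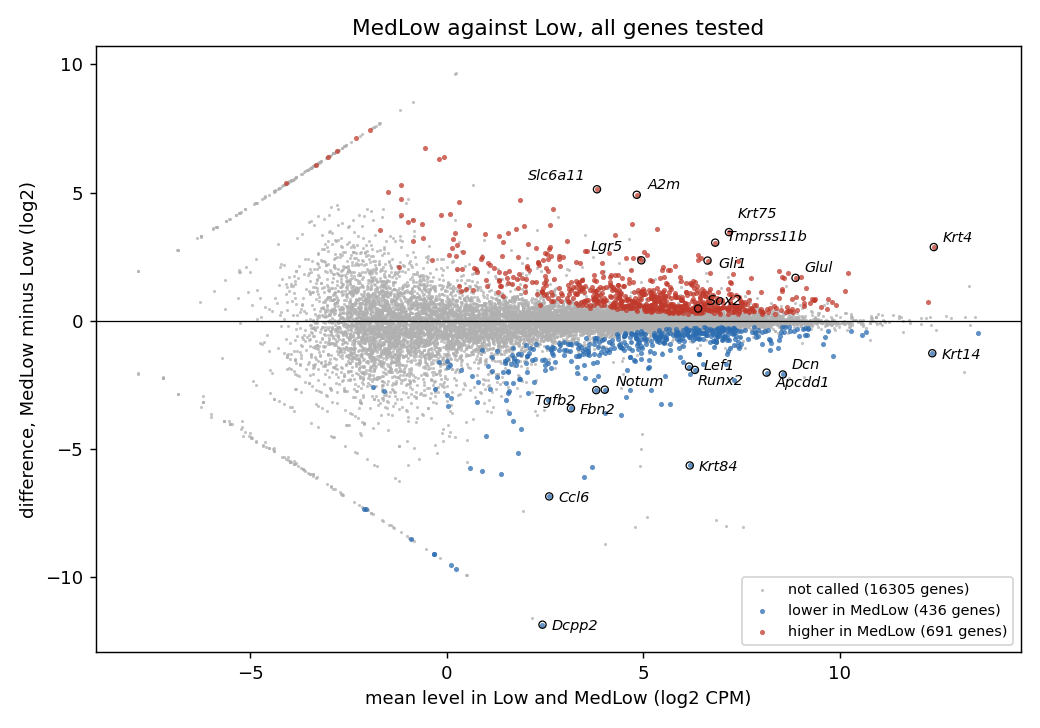
Each point is 1 gene tested, with its mean level over Low and MedLow on the horizontal axis (log2 CPM) and its log2 fold change of MedLow over Low on the vertical axis. Red points are the 691 genes called higher in MedLow and blue points the 436 called lower, 46 genes with 0 counts in both bins are not drawn, and the 2 slanting edges are genes with 0 counts in 1 bin.

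Sox2 followed the sort. It had 71.1, 76.1 and 63.8 CPM in Low and 97.1, 99.3 and 97.4 CPM in MedLow (log2 fold change 0.48, SE 0.07, adjusted p = 6.7e-04). The eGFP transcript of the reporter had 91.1, 80.2 and 81.4 CPM in Low and 136, 145 and 154 CPM in MedLow (log2 fold change 0.78, SE 0.08, adjusted p = 2.2e-05). For both, every MedLow library lay above every Low library. Since brightness chose the bins, these 2 changes describe the sort.

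The genes with the largest rise in MedLow were a transporter, a protease inhibitor and several surface proteases and keratins. Slc6a11, a transporter of the neurotransmitter GABA, had 0.636, 0.686 and 1.01 CPM in Low and 31.3, 21.7 and 29.5 CPM in MedLow (log2 fold change 5.13, SE 0.36, adjusted p = 1.8e-05). A2m, the broad protease inhibitor alpha-2-macroglobulin, had 2.21, 1.49 and 1.69 CPM in Low and 86.8, 24.3 and 54.6 CPM in MedLow (log2 fold change 4.91, SE 0.63, adjusted p = 0.0023). Its 3 MedLow libraries differed widely from one another, and all stood far above Low. The call of A2m was lost with limma-voom (0.15).

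Krt75, a keratin known from the companion layer of hair follicles, had 21.3, 20.6 and 30.6 CPM in Low and 269, 212 and 316 CPM in MedLow (log2 fold change 3.46, SE 0.18, adjusted p = 6.8e-07). Its means in HiMed and High were 1822 and 3620 CPM. The cytochrome P450 Cyp3a13 had 7.25, 3.95 and 7.40 CPM in Low and 74.4, 67.4 and 83.4 CPM in MedLow (log2 fold change 3.57, SE 0.21, adjusted p = 1.5e-06). Cdo1, cysteine dioxygenase, rose by 3.09 (adjusted p = 2.0e-05), from 1.77 ± 0.528 to 14.9 ± 3.82 CPM (mean ± SD, n = 3), and the sulfotransferase Sult1d1 by 3.72 (adjusted p = 9.0e-04). The fibril-associated collagen Col12a1 rose by 2.87 (adjusted p = 9.9e-05), a call lost with limma on log2(TPM + 1) (0.14) and with limma on log2(TPM + 0.1) (0.12). The water channel Aqp4 had 0.400, 0.484 and 0.908 CPM in Low and 11.3, 10.9 and 15 CPM in MedLow (log2 fold change 4.36, SE 1.04, adjusted p = 0.037). The groups of Aqp4 did not overlap, but its call was lost without single libraries (9 of them, including all 6 of Low and MedLow, adjusted p 0.051 to 0.15) and with no filter on low counts (0.080).

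The smallest adjusted p-values among the other higher genes belonged to Sptssb, a small subunit of the enzyme that starts sphingolipid synthesis, and to Akap12, a scaffold for protein kinase A. Sptssb had 31.2, 25.7 and 25.9 CPM in Low and 148, 134 and 142 CPM in MedLow (log2 fold change 2.35, SE 0.10, adjusted p = 9.0e-09). Akap12 had 8.08, 8.59 and 8.54 CPM in Low and 48.5, 37.2 and 50.3 CPM in MedLow (log2 fold change 2.43, SE 0.12, adjusted p = 1.4e-08). Both separated the bins with little spread inside either. Glutamine synthetase, Glul, rose by 1.68 (adjusted p = 9.5e-08) from 224 ± 20.1 to 715 ± 76.3 CPM, the protease Tmprss4 by 1.87 (adjusted p = 1.5e-07) and the ephrin receptor Ephb2 by 1.99 (adjusted p = 9.1e-07).

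Tmprss11b and Tmprss11g, both among the 12 largest rises, are membrane-bound serine proteases of surface epithelia and lie in a row with their relatives on chromosome 5. The family was singled out after its values were seen. Tmprss11b had 23.8, 18.5 and 31.1 CPM in Low and 194, 169 and 245 CPM in MedLow (log2 fold change 3.05, SE 0.21, adjusted p = 1.1e-05). Tmprss11g had 2.83, 2.70 and 5.19 CPM in Low and 50.6, 31.4 and 65.7 CPM in MedLow (log2 fold change 3.77, SE 0.34, adjusted p = 1.6e-04). Neither gene overlapped between the bins. Tmprss11d had 51, 72.2 and 55.3 CPM in Low and 111, 113 and 151 CPM in MedLow (log2 fold change 1.08, SE 0.21, adjusted p = 0.013), a call lost without Low replicate 1 (0.064) and without Low replicate 3 (0.062). Tmprss11a, with the highest level of the 6, had 498, 461 and 452 CPM in Low and 879.8, 811 and 794 CPM in MedLow (log2 fold change 0.82, SE 0.17, adjusted p = 0.012), a call lost without Low replicate 2 (0.051), without Low replicate 3 (0.053) and without MedLow replicate 1 (0.052). Tmprss11e and Tmprss11f were not called (adjusted p = 0.097 and 0.23), though their MedLow libraries too lay above their Low libraries. In all, 4 of the 6 family members tested rose and none fell, beside 3.96% of all genes called higher. Reads shared between such related genes may have been divided by the quantification, so the split among them is uncertain.

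**Figure D2:**
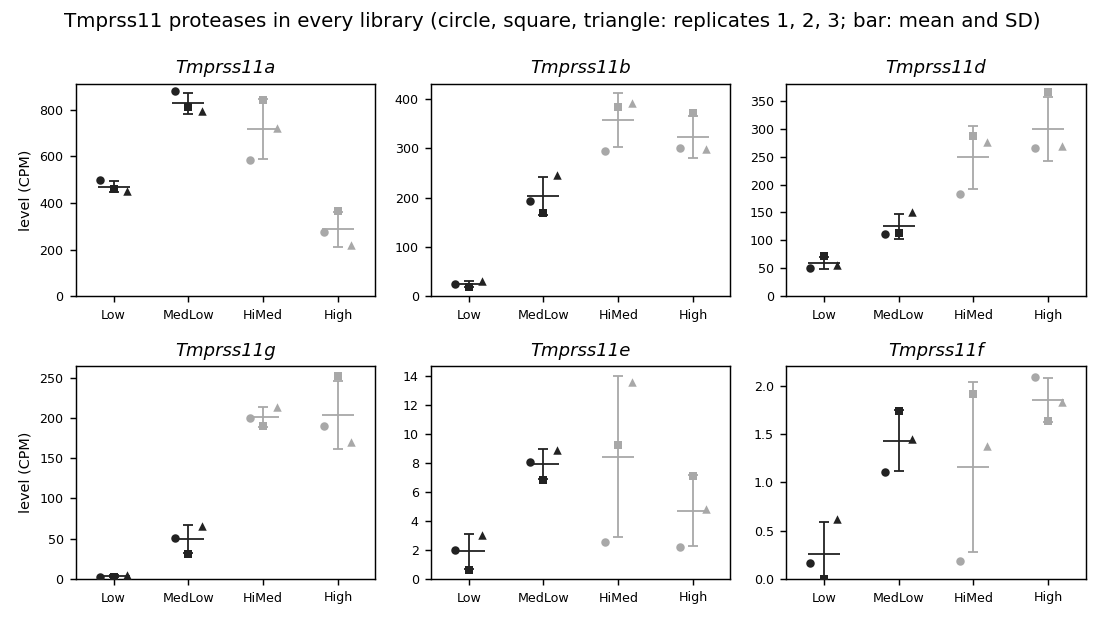
The level in CPM of 6 Tmprss11 genes is shown on linear axes that start at 0, with 1 point per library and the mean and SD (n = 3) for each of the 4 bins. Low and MedLow are black and the other bins grey, and in each of the 6 panels the 3 MedLow points lie above the 3 Low points.

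Since 4 members of this row of genes rose in cells sorted by a Sox2 reporter, the 250 bases before their annotated starts are shown. They come from RefSeq on build GRCm38.p6, all on the minus strand and written 5′ to 3′. Tmprss11f, which lies between Tmprss11g and Tmprss11b, was not called and is not shown. Capitals mark AACAATG, a common SOX binding motif, or its reverse complement CATTGTT. The windows are chr5:86676299-86676548 for Tmprss11b, chr5:86518601-86518850 for Tmprss11g, chr5:86468991-86469240 for Tmprss11a and chr5:86373388-86373637 for Tmprss11d.
Tmprss11b: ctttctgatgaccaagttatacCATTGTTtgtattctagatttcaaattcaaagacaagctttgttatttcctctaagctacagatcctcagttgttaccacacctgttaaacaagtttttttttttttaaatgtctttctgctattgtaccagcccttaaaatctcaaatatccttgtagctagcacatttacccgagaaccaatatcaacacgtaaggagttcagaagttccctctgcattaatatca
Tmprss11g: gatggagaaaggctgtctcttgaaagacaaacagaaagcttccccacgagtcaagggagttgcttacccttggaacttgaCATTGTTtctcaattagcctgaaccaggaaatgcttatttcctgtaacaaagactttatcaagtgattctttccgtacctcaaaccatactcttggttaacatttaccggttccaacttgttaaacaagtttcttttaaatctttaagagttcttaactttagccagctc
Tmprss11a: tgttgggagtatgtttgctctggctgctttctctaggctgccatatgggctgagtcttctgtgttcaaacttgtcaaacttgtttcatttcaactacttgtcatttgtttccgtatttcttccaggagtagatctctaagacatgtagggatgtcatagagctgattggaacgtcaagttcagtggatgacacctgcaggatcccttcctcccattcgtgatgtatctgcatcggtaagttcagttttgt
Tmprss11d: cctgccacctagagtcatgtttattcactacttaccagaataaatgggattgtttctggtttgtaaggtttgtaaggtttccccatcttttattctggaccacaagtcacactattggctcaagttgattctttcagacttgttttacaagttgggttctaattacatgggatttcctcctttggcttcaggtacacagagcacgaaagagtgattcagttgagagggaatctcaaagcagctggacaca
Tmprss11b held 1 match, which begins 228 bases before the start, and Tmprss11g 1 match, 170 bases before it. Tmprss11a and Tmprss11d held none. The windows of Tmprss11f and of Tmprss11c, which was not tested, held none either, and Tmprss11e had no entry among the promoters used. Only these exact letters were sought, so other forms of a SOX motif are left unmarked and uncounted. Of 27025 genes with a promoter in the table, 1022 (3.78%) held the motif on either strand, as did 269 of 12100 genes tested (2.22%), 20 of 505 called higher (3.96%) and 10 of 317 called lower (3.15%). A match is a description of the letters and shows neither binding nor a cause.

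At the basal face, the anchoring genes fell together. Of the 14 genes of hemidesmosomes and basement membrane, all tested, 10 fell and none rose, beside 2.50% of all genes called lower, and the median was -0.45. MedLow libraries lay below Low libraries for 12 of the 14. Frem2, a basement membrane adhesion protein, had 112, 130.4 and 121 CPM in Low and 51.2, 52.3 and 45.8 CPM in MedLow (log2 fold change -1.28, SE 0.14, adjusted p = 2.7e-05). Its partner Fras1 had 34.5, 33.3 and 45.4 CPM in Low and 11, 7.60 and 11.3 CPM in MedLow (log2 fold change -1.92, SE 0.24, adjusted p = 2.4e-04), a call lost with limma on log2(TPM + 1) (0.076). The laminin-332 chain Lamb3 had 659, 656 and 669 CPM in Low and 452, 448 and 448 CPM in MedLow (log2 fold change -0.56, SE 0.07, adjusted p = 2.4e-04). These 3 genes showed no overlap of bins. Plectin, Plec, which ties keratin to the hemidesmosome, fell by 0.53 (adjusted p = 2.5e-04), dystonin, Dst, by 0.42 (adjusted p = 0.0044), the laminin chain Lama3 by 0.45 (adjusted p = 0.0037) and the anchoring fibril collagen Col7a1 by 0.59 (adjusted p = 0.0048).

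Both keratins that define basal cells fell. Krt14 had 7119, 7323 and 7749 CPM in Low and 2760, 3046 and 3445 CPM in MedLow (log2 fold change -1.26, SE 0.13, adjusted p = 1.8e-05). Krt5 had 13778, 13742 and 13979 CPM in Low and 9277, 10148 and 10085 CPM in MedLow (log2 fold change -0.49, SE 0.13, adjusted p = 0.028). Both were lower in every MedLow library than in any Low library. The call of Krt5 was lost without single libraries (6 of them, including all 6 of Low and MedLow, adjusted p 0.067 to 0.11), with limma on log2(TPM + 1) (0.10) and with limma on log2(TPM + 0.1) (0.084). Krt15, a keratin of resting basal cells, had 6528, 6473 and 5678 CPM in Low and 4789, 5388 and 4479 CPM in MedLow and was not called (adjusted p = 0.62). Its bins did not overlap, and of the alternatives only a fit of the 6 libraries alone called it lower (adjusted p = 0.019). Trp63, the master transcription factor of stratified epithelia, had 868, 878 and 859.6 CPM in Low and 942, 882 and 919 CPM in MedLow and was not called (adjusted p = 0.90). The 14 basal progenitor genes gave 2 calls higher and 4 lower, beside 3.96% and 2.50% of all genes, with a median of 0.07. The lower count was 1 without Low 3, MedLow 1 or MedLow 2 and 2 without Low 1, Low 2 or MedLow 3.

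Of 2 receptors that mark progenitors, 1 rose and 1 fell. Lgr5, a receptor for R-spondin found on progenitors of this papilla, had 12.3, 6.94 and 10.8 CPM in Low and 61.3, 41.4 and 52.8 CPM in MedLow (log2 fold change 2.36, SE 0.24, adjusted p = 1.8e-04). Its relative Lgr6 had 60.5, 63.6 and 79 CPM in Low and 51.1, 36.8 and 49.9 CPM in MedLow (log2 fold change -0.56, SE 0.15, adjusted p = 0.042). Lgr5 was higher and Lgr6 lower in every MedLow library. The call of Lgr6 was lost without single libraries (10 of them, including all 6 of Low and MedLow, adjusted p 0.052 to 0.16), under library size only (0.054), with no filter on low counts (0.087), with limma-voom (0.061), with limma on log2(TPM + 1) (0.14) and with limma on log2(TPM + 0.1) (0.12). The mean of Lgr6 in HiMed was 304 CPM, above both, and its change from MedLow to HiMed differed from that from Low to MedLow (step difference 3.29, SE 0.28, adjusted p = 9.8e-05).

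**Figure D3:**
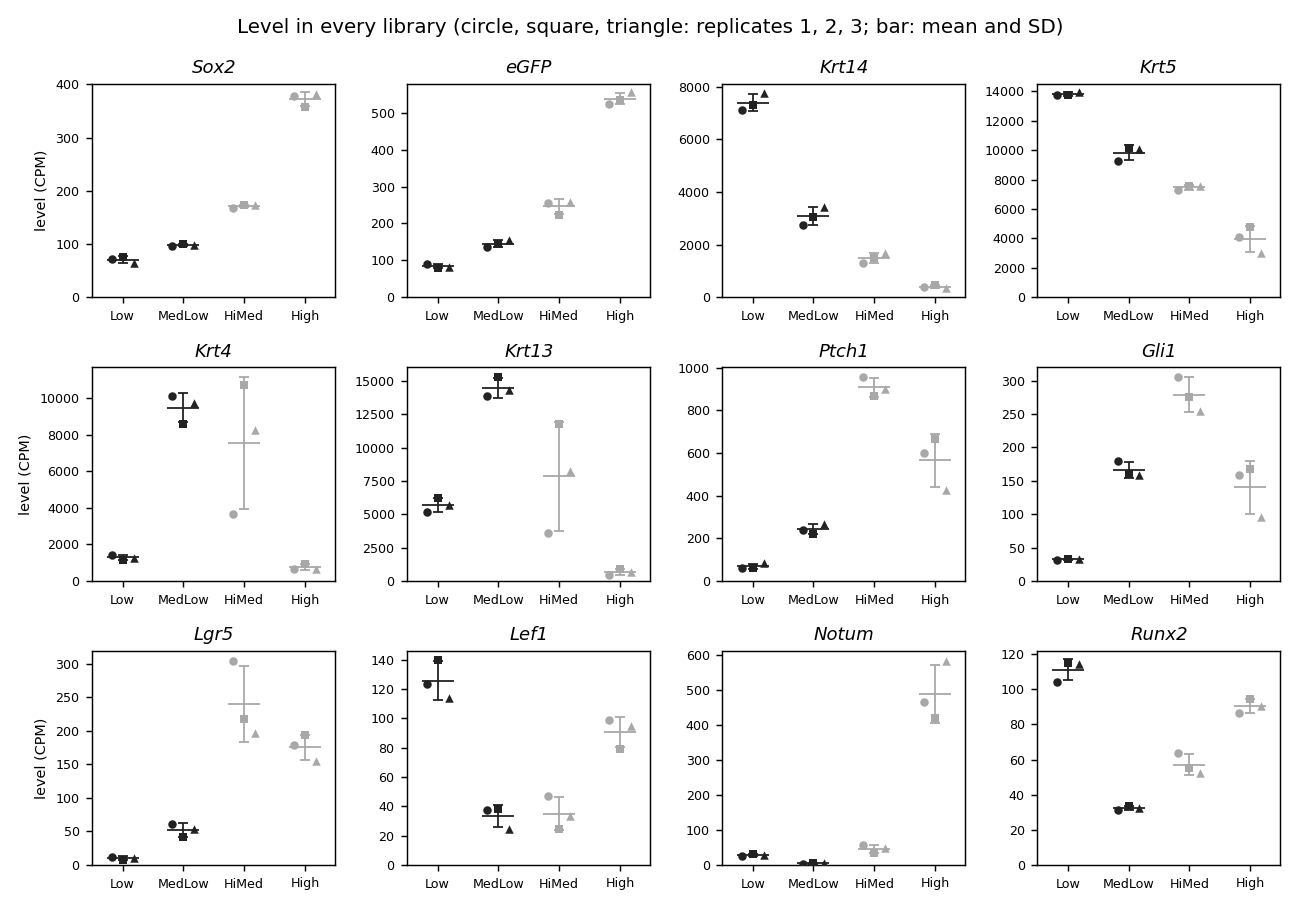
The level in CPM of 12 genes in every library is drawn on linear axes that start at 0, with the mean and SD (n = 3) of each bin, Low and MedLow in black and HiMed and High in grey. Sox2, eGFP, Krt4, Krt13, Ptch1, Gli1 and Lgr5 lie higher in MedLow than in Low, while Krt14, Krt5, Lef1, Notum and Runx2 lie lower.

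Keratinocyte genes above the basal layer were higher in MedLow. Of 20 suprabasal genes tested, 7 rose and none fell, beside 3.96% and 2.50% of all genes, with a median of 1.16. MedLow libraries lay above Low libraries for 15, beside 27.4% of all genes without overlap in either direction. Krt4, the main suprabasal keratin of inner surfaces, had 1439, 1160 and 1275 CPM in Low and 10134, 8576 and 9712 CPM in MedLow (log2 fold change 2.88, SE 0.35, adjusted p = 0.0011). Its partner Krt13 had 5194, 6191 and 5690 CPM in Low and 13850, 15276 and 14321 CPM in MedLow. Although the groups of Krt13 lay far apart, its adjusted p was 0.075 with a spread shared by 4 bins, and it was called with the replicate block (adjusted p = 0.030), without HiMed replicate 1 (0.0014) and in a fit of the 6 libraries alone (1.7e-06). Krtdap, a secreted protein of differentiating keratinocytes, had 162, 163 and 207 CPM in Low and 522, 711 and 698 CPM in MedLow (log2 fold change 1.86, SE 0.24, adjusted p = 0.0013). Krt17 had 3321, 3638 and 3992 CPM in Low and 5616, 5582 and 7247 CPM in MedLow (log2 fold change 0.75, SE 0.14, adjusted p = 0.0028). Krt10, the skin suprabasal keratin, had 124, 230.4 and 317 CPM in Low and 372, 577 and 772 CPM in MedLow (adjusted p = 0.27), and was called only with the replicate block (adjusted p = 0.0054). The count of 7 was 3 without Low 1, 4 without Low 2 or MedLow 3 and 11 with the replicate block.

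Genes of the cornified envelope, the cross-linked protein shell of surface keratinocytes, were split from the hard keratins of filiform papillae. Of 22 tested, 6 rose and 1 fell, beside 3.96% and 2.50% of all genes, with a median of 0.87. MedLow libraries lay above Low for 13 and below for 2, beside 27.4% of all genes without overlap. Evpl, envoplakin, had 593, 729.7 and 689 CPM in Low and 1057, 1064 and 1185 CPM in MedLow (log2 fold change 0.72, SE 0.13, adjusted p = 0.0037). Sprr1a, a small proline-rich precursor of the envelope, had 140.5, 167 and 208 CPM in Low and 438, 456 and 807 CPM in MedLow (log2 fold change 1.72, SE 0.32, adjusted p = 0.013), a call lost without Low replicate 1 (0.065) and without Low replicate 2 (0.057). Involucrin, Ivl, had 2.33, 3.79 and 5.86 CPM in Low and 7.41, 8.88 and 11.9 CPM in MedLow (adjusted p = 0.061), and was called with the replicate block (adjusted p = 2.5e-04). The count of 6 was 1 without Low 2, 2 without Low 1 or MedLow 3 and 3 without MedLow 1.

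The hard keratins had the opposite sign. Krt84, known from filiform papillae, had 47.4, 162 and 218 CPM in Low and 0.823, 5.23 and 2.47 CPM in MedLow (log2 fold change -5.64, SE 1.19, adjusted p = 0.027). Krt36 had 22, 75.8 and 81.6 CPM in Low and 1.52, 4.53 and 2.47 CPM in MedLow (adjusted p = 0.054, and 0.023 with the block). For both keratins Low replicate 1 was the lowest Low library and MedLow replicate 1 the lowest MedLow library, and the bins did not overlap. The call of Krt84 was lost without Low replicate 2 (0.082), without Low replicate 3 (0.10), without MedLow replicate 1 (0.11), without MedLow replicate 2 (0.070) and without MedLow replicate 3 (0.12). The count of 1 lower in the list was 0 without Low 2, Low 3, MedLow 1, MedLow 2 or MedLow 3, 2 without HiMed 1, HiMed 3 or High 2 and 2 with the replicate block.

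Junction genes gave few calls. Of 14 genes of desmosomes and cadherins, 2 rose and 1 fell, beside 3.96% and 2.50% of all genes. The list's median was 0.14, -0.02 to 0.20 under the alternatives. Refitting moved the lower count to 0 without Low 1, Low 2, Low 3, MedLow 2 or MedLow 3, 2 without High 2, 3 without High 3 and 3 with the replicate block. The desmosomal cadherins Dsc2 and Dsg3 rose, by 0.84 (adjusted p = 5.6e-04) and 0.45 (adjusted p = 0.0076). Dsc2 had 451, 499 and 481 CPM in Low and 823, 852 and 885 CPM in MedLow. Among 16 serpins, 2 rose and 1 fell, beside the same shares of all genes. Their median was 0.38, and 4 rose with the replicate block. The secreted inhibitor Serpine2 had 19.8, 19.5 and 23.7 CPM in Low and 102, 74.9 and 99.2 CPM in MedLow (log2 fold change 2.13, SE 0.14, adjusted p = 9.1e-07), and Serpinb10 had 206, 202 and 188 CPM in Low and 91.4, 93 and 78.6 CPM in MedLow (log2 fold change -1.18, SE 0.14, adjusted p = 8.3e-05). No S100 gene was called of 12 tested (median -0.16, -0.36 to 0.14 under the alternatives). The replicate block called S100a10 and S100a6 lower (adjusted p = 0.027 and 0.024), and 1 was lower when any 1 of the High libraries was left out.

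**Figure D4:**
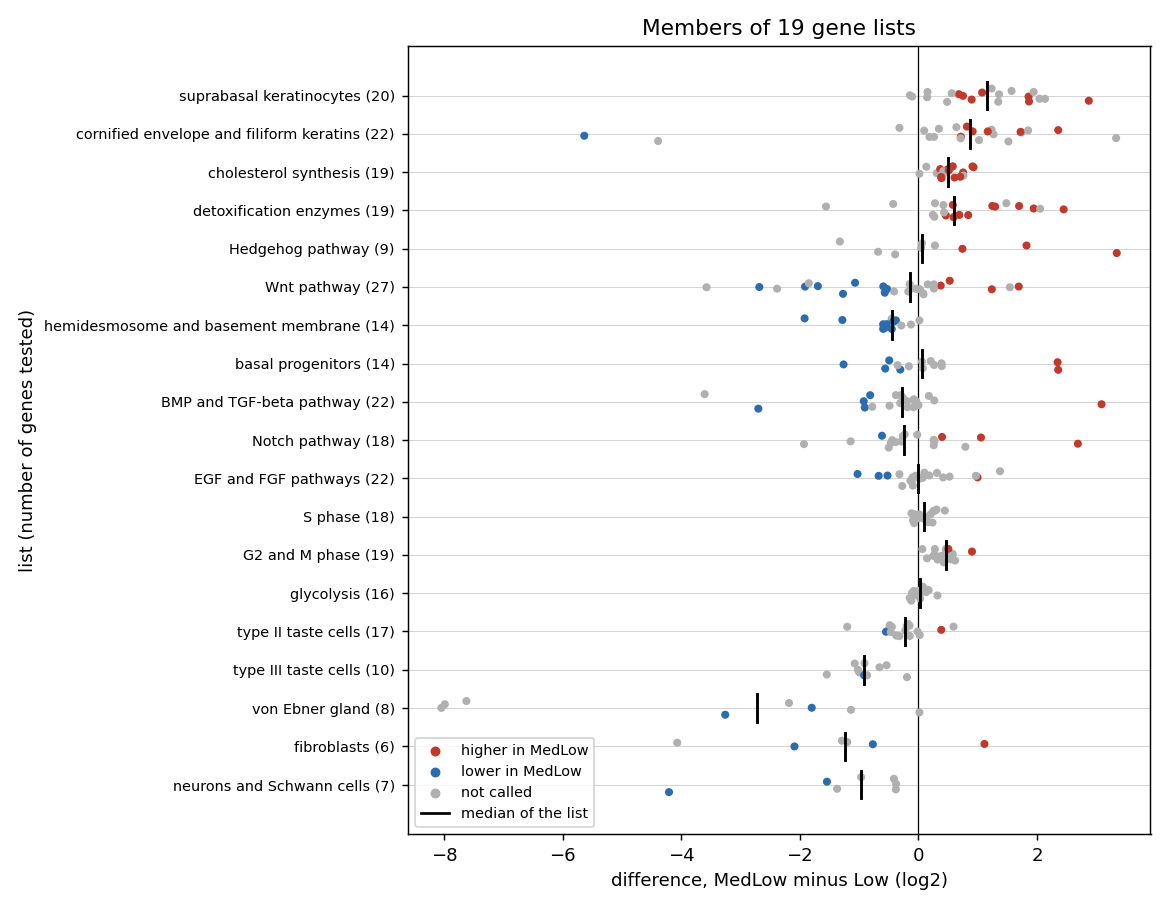
Every point is 1 tested gene of 1 of 19 lists, placed by its log2 fold change of MedLow over Low, in red if called higher, blue if called lower and grey if not called, with a black bar at the list's median. Cholesterol synthesis and detoxification enzymes sit mostly to the right of 0 and hemidesmosome genes to the left.

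The Hedgehog target genes Ptch1 and Gli1 rose. In this pathway the receptor Ptch1 restrains Smo until a Hedgehog ligand such as Shh binds it, and the factor Gli1 and Ptch1 itself are its classic targets. Ptch1 had 61.5, 61.4 and 82.7 CPM in Low and 237, 223 and 268 CPM in MedLow (log2 fold change 1.82, SE 0.16, adjusted p = 2.0e-05). Gli1, kept in the basal progenitor list, had 31.6, 32.7 and 33.6 CPM in Low and 180.1, 160.0 and 158 CPM in MedLow (log2 fold change 2.35, SE 0.18, adjusted p = 9.8e-06). In both the lowest MedLow library exceeded the highest Low library by far. Their calls held under every alternative tried. Gli2, an activator upstream of them, had 58.3, 56.9 and 63.4 CPM in Low and 98.4, 89.8 and 111 CPM in MedLow (log2 fold change 0.74, SE 0.16, adjusted p = 0.017), a call lost without Low replicate 1 (0.070), without Low replicate 2 (0.074), without MedLow replicate 1 (0.053), without MedLow replicate 3 (0.073), with limma on log2(TPM + 1) (0.075) and with limma on log2(TPM + 0.1) (0.073).

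The ligand itself was barely present. Shh had 0.212, 0 and 0.208 CPM in Low and 0.206, 0 and 0 CPM in MedLow. The transducer Smo had 127, 147 and 141 CPM in Low and 141, 136 and 151 CPM in MedLow and the repressor Gli3 16, 17 and 18.1 CPM in Low and 17.7, 17.6 and 17.9 CPM in MedLow, and neither was called (adjusted p = 0.92 and 0.95). The co-receptor Boc had 112, 109 and 99 CPM in Low and 82.8, 82.3 and 79 CPM in MedLow (adjusted p = 0.053), and it was called lower with the replicate block (adjusted p = 0.021). Gas1, another co-receptor, had 141, 158 and 131 CPM in Low and 89.5, 88.3 and 90.9 CPM in MedLow (adjusted p = 0.15). Of the 9 pathway genes tested, 3 rose and none fell, beside 3.96% and 2.50% of all genes, with a median of 0.06. MedLow libraries lay above Low for 4 and below for 3. The lowest value was that of Hhip, which was not called (log2 fold change -1.32, adjusted p = 0.58). The lower count became 1 with the replicate block, without High replicate 2 or without High replicate 3, and 2 without HiMed replicate 1.

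Wnt pathway genes moved in both directions. Of 27 tested, 4 rose and 8 fell, beside 3.96% and 2.50% of all genes, with a median of -0.15. Among the factors that act at the end of the pathway, Lef1 and Tcf7 fell, while Tcf7l1, Tcf7l2 and Ctnnb1 were not called (log2 fold changes -0.12, 0.09 and -0.15, adjusted p = 0.52, 0.85 and 0.28). Lef1 had 123, 140.0 and 114 CPM in Low and 37.4, 38.4 and 24.4 CPM in MedLow (log2 fold change -1.91, SE 0.23, adjusted p = 6.4e-04). Tcf7 had 29.1, 29.7 and 31 CPM in Low and 13, 13.7 and 16.1 CPM in MedLow (log2 fold change -1.07, SE 0.13, adjusted p = 1.1e-04). Axin2, a negative regulator that is a general Wnt target, had 56.5, 63.2 and 44.5 CPM in Low and 23.4, 24.9 and 19.6 CPM in MedLow (log2 fold change -1.27, SE 0.15, adjusted p = 8.0e-05). All 3 were lower in each MedLow library than in any Low library.

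Inhibitors and receptors of the pathway did not all move one way. Notum, an enzyme that removes the lipid of Wnt ligands, had 24.4, 31.9 and 27.9 CPM in Low and 3.11, 4.53 and 5.45 CPM in MedLow (log2 fold change -2.68, SE 0.24, adjusted p = 8.9e-05). Lrp4, a receptor that modulates Wnt signals, had 202, 211 and 220.3 CPM in Low and 61.5, 70.8 and 63.3 CPM in MedLow (log2 fold change -1.70, SE 0.12, adjusted p = 1.3e-06). Both dropped to well under their Low values without overlap. Apcdd1, a Wnt inhibitor at the membrane, had 395, 501 and 459.6 CPM in Low and 105, 133 and 97.1 CPM in MedLow (log2 fold change -2.02, SE 0.16, adjusted p = 7.9e-06). Nkd2, a further inhibitor and chosen after its values were seen, had 18.8, 24.9 and 26.7 CPM in Low and 5.17, 4.57 and 6.19 CPM in MedLow (log2 fold change -2.14, SE 0.21, adjusted p = 1.3e-05). The ubiquitin ligase Rnf43 fell by 0.57 (adjusted p = 0.0069), a call lost with limma on log2(TPM + 1) (0.35) and with limma on log2(TPM + 0.1) (0.35), and Dkk3 fell by 0.53 (adjusted p = 0.0017). The receptor Fzd10 rose by 0.38 (adjusted p = 0.031), a call lost without Low replicate 1 (0.073), without Low replicate 2 (0.095), without Low replicate 3 (0.11), without MedLow replicate 2 (0.14), without MedLow replicate 3 (0.13), with limma-voom (0.096), with limma on log2(TPM + 1) (0.15) and with limma on log2(TPM + 0.1) (0.14). The receptors Fzd6 and Fzd7, the ligase Znrf3 and the inhibitor Nkd1 were not called (adjusted p = 0.58, 0.16, 0.80 and 0.94).

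Wnt7b and Wnt9a were among the Wnt ligands that rose. Wnt7b had 59.7, 57.3 and 69 CPM in Low and 143, 138 and 158 CPM in MedLow (log2 fold change 1.24, SE 0.12, adjusted p = 1.3e-05). Wnt9a, chosen after its values were seen, had 5.41, 3.55 and 5.27 CPM in Low and 31.3, 22.1 and 37.6 CPM in MedLow (log2 fold change 2.66, SE 0.20, adjusted p = 2.1e-06). For both ligands every MedLow library stood above every Low library. Wif1, a secreted inhibitor of Wnt ligands, had 9.25, 4.56 and 8.07 CPM in Low and 28.5, 19.6 and 23.8 CPM in MedLow (log2 fold change 1.69, SE 0.30, adjusted p = 0.0093), a call lost with limma-voom (0.064). Wnt4 and Wnt10a, in the same family, had means of 330.2 ± 31.9 and 108 ± 5.00 CPM in Low and 321 ± 23.6 and 81 ± 0.0611 CPM in MedLow and were not called (adjusted p = 0.97 and 0.10). Wnt3 and Wnt10b were not called either (log2 fold changes -2.38 and -1.85, adjusted p = 0.24 for each). A fit of the 6 libraries alone called Wnt3, Wnt10a and Wnt10b lower (adjusted p = 0.017, 0.0016 and 0.0093).

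Other signalling lists gave few calls. In the BMP and TGF-beta pathway 1 of 22 genes rose and 4 fell (7 with the replicate block), beside 3.96% and 2.50% of all genes. The list's median was -0.28. The ligand Tgfb2 had 19.2, 24.4 and 28.9 CPM in Low and 3.24, 3.32 and 4.61 CPM in MedLow (log2 fold change -2.70, SE 0.27, adjusted p = 2.0e-05). Fst, follistatin, which binds activin, had 47.3, 52.3 and 47.6 CPM in Low and 26.9, 22.5 and 28.3 CPM in MedLow (log2 fold change -0.92, SE 0.16, adjusted p = 0.0041). Id2, a target of BMP signals, had 278, 214 and 214 CPM in Low and 132, 136 and 109 CPM in MedLow (log2 fold change -0.90, SE 0.12, adjusted p = 2.7e-04). Each of these 3 was lower in MedLow without overlap. The ligand Bmp2 fell by 0.81 (adjusted p = 0.0047). The receptor Bmpr1b was low in Low, at 0.550 ± 0.333 CPM, and rose to 4.79 ± 1.48 CPM (log2 fold change 3.09, SE 0.38, adjusted p = 1.1e-04), a call lost with limma-voom (0.055).

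In the Notch pathway 3 of 18 genes rose and 1 fell, beside 3.96% and 2.50% of all genes, with a median of -0.25. The lower count was 2 without High 1, High 2 or High 3 and 2 with the replicate block. The receptor Notch1 had 989, 972 and 907 CPM in Low and 645, 614 and 615 CPM in MedLow (log2 fold change -0.61, SE 0.10, adjusted p = 9.0e-04). The target Hey1 had 5.30, 8.15 and 5.94 CPM in Low and 16.3, 11 and 12.7 CPM in MedLow (log2 fold change 1.06, SE 0.17, adjusted p = 0.0019), a call lost with limma on log2(TPM + 1) (0.10) and with limma on log2(TPM + 0.1) (0.090). Neither gene overlapped between the bins. Among 22 genes of the EGF and FGF pathways 1, the EGF receptor ligand Areg, rose and 3 fell, beside the same shares of all genes. Refitting moved the lower count to 1 without Low 2, Low 3 or MedLow 1, and the higher count to 0 without Low 1, Low 3, MedLow 1, MedLow 3, HiMed 2, High 1, High 2 or High 3, 2 without HiMed 3, 3 without HiMed 1 and 3 with the replicate block. The receptor Fgfr1 had 99.9, 90.7 and 103 CPM in Low and 63.7, 57.5 and 63.6 CPM in MedLow (log2 fold change -0.67, SE 0.09, adjusted p = 3.2e-04). The FGF target Etv5 fell by 0.52 (adjusted p = 0.014), a call lost without Low replicate 2 (0.055), without Low replicate 3 (0.058), without MedLow replicate 1 (0.074) and with limma-voom (0.052).

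Transcription factors moved in both directions. Of 30 epidermal regulators, 4 rose and 2 fell, beside 3.96% and 2.50% of all genes, with a median of 0.05. The higher count was 1 without MedLow 3, 2 without Low 1, Low 2, Low 3 or MedLow 1, 7 without High 2 and 8 with the replicate block, and the lower count 1 without Low 2, MedLow 2 or MedLow 3 and 4 with the replicate block. The homeobox gene Irx4 had 54.4, 56.7 and 54 CPM in Low and 16.7, 18.1 and 12.7 CPM in MedLow (log2 fold change -1.80, SE 0.19, adjusted p = 5.6e-05). Elf5 had 6.40, 10.3 and 9.06 CPM in Low and 17, 17.6 and 23.3 CPM in MedLow (log2 fold change 1.17, SE 0.21, adjusted p = 0.0029). Runx2, named by its adjusted p and best known from bone, had 104, 115 and 114 CPM in Low and 31.2, 33.3 and 32.5 CPM in MedLow (log2 fold change -1.78, SE 0.09, adjusted p = 1.4e-08). All 3 separated the bins. The LIM homeobox gene Lhx6 had 37.8, 45.8 and 36.9 CPM in Low and 3.11, 4.70 and 1.55 CPM in MedLow (log2 fold change -3.68, SE 0.57, adjusted p = 0.0029).

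Among 13 taste lineage factors, 2 rose and 2 fell, beside 3.96% and 2.50% of all genes. The list's median was 0.01, -0.28 to 0.15 under the alternatives. The lower count was 1 without Low 3, MedLow 1 or MedLow 2. Foxa1 had 222, 214 and 201 CPM in Low and 151, 137 and 128 CPM in MedLow (log2 fold change -0.62, SE 0.10, adjusted p = 9.2e-04). Its MedLow libraries all lay below its Low libraries. Etv1 rose by 0.97 (adjusted p = 0.0013), a call lost with limma-voom (0.061), with limma on log2(TPM + 1) (0.20) and with limma on log2(TPM + 0.1) (0.17).

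Differentiated taste cell genes gave few calls. None of the 4 type I genes was called. The glia-like marker Entpd2 had 19.8, 23.6 and 16.2 CPM in Low and 14.9, 16.2 and 13.6 CPM in MedLow (adjusted p = 0.34), and the glutamate transporter Slc1a3 had 54.1, 48.5 and 46.6 CPM in Low and 20.6, 21.7 and 19.5 CPM in MedLow (adjusted p = 0.41). Slc1a3 was called lower without HiMed replicate 1 (0.027), with limma-voom (6.5e-04), with limma on log2(TPM + 1) (0.044) and in the 6 libraries alone (9.6e-06). The other 2, Kcnj1 and Oxtr, were close to 0 in both bins. Of 17 type II genes, the cation channel Trpm4 rose and 1 gene fell, beside 3.96% and 2.50% of all genes. The list's median was -0.22, -0.63 to 0.04 under the alternatives. The call of Trpm4 (log2 fold change 0.39, SE 0.09, adjusted p = 0.020) was lost without Low replicate 1 (0.083), without Low replicate 2 (0.059), without MedLow replicate 1 (0.073), without MedLow replicate 3 (0.073), with limma on log2(TPM + 1) (0.13) and with limma on log2(TPM + 0.1) (0.12), and the lower count was 2 without Low 2 and 2 with the replicate block. Trpm5, the cation channel of sweet, bitter and umami cells, had 67.1, 36.2 and 85.5 CPM in Low and 72.5, 25.4 and 64.4 CPM in MedLow, with replicate 2 the lowest in both bins, and was not called (adjusted p = 0.91). Itpr3, its partner in the cascade and present in other epithelial cells too, had 633, 702 and 709 CPM in Low and 481, 451 and 468 CPM in MedLow (log2 fold change -0.55, SE 0.07, adjusted p = 1.9e-04).

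Of 10 type III genes tested, 1 fell, beside 2.50% of all genes, with a median of -0.91. MedLow libraries lay below Low libraries for 6, beside 27.4% of all genes without overlap in either direction. The replicate block called 3. The called gene, the channel Pkd2l1, had 24.1, 23.6 and 35.4 CPM in Low and 11.5, 14.1 and 18.4 CPM in MedLow (log2 fold change -0.91, SE 0.21, adjusted p = 0.015), a call lost without Low replicate 3 (0.099), without MedLow replicate 1 (0.082), without MedLow replicate 2 (0.062), with limma on log2(TPM + 1) (0.071) and with limma on log2(TPM + 0.1) (0.074). Of 9 general taste bud genes 1 fell, beside 2.50% of all genes, with a median of -0.32. The lower count was 2 without MedLow 3, High 2 or High 3 and 2 with the replicate block. None rose, but the replicate block called the keratins Krt19 and Krt20 higher (adjusted p = 0.020 and 0.036, against 0.41 and 0.46 without it). Krt18 had 167, 203 and 228 CPM in Low and 99.6, 76.7 and 110.3 CPM in MedLow (log2 fold change -1.06, SE 0.19, adjusted p = 0.0072). Its partner Krt8 had 218, 251 and 309 CPM in Low and 124, 86.1 and 162 CPM in MedLow, also without overlap. Krt8 had an adjusted p of 0.055, and of 9.1e-04 with the block.

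Cholesterol synthesis genes rose in MedLow. The pathway makes sterols from acetyl units, with Srebf2 as the factor that drives it. Of 19 genes, all tested, 11 rose and none fell, beside 3.96% of all genes called higher, with a median of 0.49. MedLow libraries lay above Low libraries for 17 of the 19. Msmo1, a sterol demethylase, had 41.1, 46.6 and 43.8 CPM in Low and 88.9, 76.9 and 81.8 CPM in MedLow (log2 fold change 0.91, SE 0.09, adjusted p = 2.0e-05). Idi1, which isomerises isoprene units, had 63.1, 65.8 and 64.4 CPM in Low and 119.6, 102 and 105 CPM in MedLow (log2 fold change 0.75, SE 0.11, adjusted p = 6.5e-04). Sqle, squalene epoxidase, had 44.2, 49 and 59.6 CPM in Low and 79.8, 80.3 and 89.2 CPM in MedLow (log2 fold change 0.71, SE 0.13, adjusted p = 0.0037). The 3 enzymes did not overlap between bins. Insig1, the sterol sensor partner, rose by 0.61 (adjusted p = 0.0074). The count of 11 was 5 without Low 2 or MedLow 3, 6 without Low 3 or MedLow 2 and 7 without Low 1.

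Detoxification enzymes, which oxidise or conjugate foreign compounds and aldehydes, rose too. Of 19 tested, 10 rose and none fell, beside 3.96% and 2.50% of all genes, with a median of 0.59, and 17 had MedLow libraries above Low libraries. The replicate block called 1 lower, the retinal dehydrogenase Aldh1a1 (adjusted p = 0.0010, against 0.18 without it). The carboxylesterase Ces1d had 144, 131 and 156 CPM in Low and 577, 550.4 and 534 CPM in MedLow (log2 fold change 1.95, SE 0.15, adjusted p = 3.3e-06). The cytochrome P450 Cyp2f2 had 231, 279 and 215 CPM in Low and 903, 708 and 744 CPM in MedLow (log2 fold change 1.70, SE 0.13, adjusted p = 3.4e-06). The alcohol dehydrogenase Adh7, which also acts on retinol, had 328, 359 and 286 CPM in Low and 775, 839 and 774 CPM in MedLow (log2 fold change 1.30, SE 0.14, adjusted p = 6.4e-05). All MedLow libraries of the 3 stood above all Low libraries. Gsto1, a glutathione transferase, rose by 0.84 (adjusted p = 0.0036), Aldh3a1, an aldehyde dehydrogenase, by 0.69 (adjusted p = 0.0055) and the oxidase Fmo2 by 1.25 (adjusted p = 0.0040). In the opposite direction and outside the list, the aldehyde oxidase Aox3 had 36.6, 41.3 and 47.3 CPM in Low and 4.50, 6.32 and 5.21 CPM in MedLow (log2 fold change -2.96, SE 0.23, adjusted p = 1.6e-06). The count of 10 was 6 without Low 1 or Low 2.

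Metallothioneins, small proteins that bind zinc and copper, fell or did not pass the test. The lower count of 1 among the 4 was 2 without HiMed 1, High 1 or High 3 and 2 with the replicate block. Mt1 had 365, 361 and 357 CPM in Low and 219.9, 254 and 197 CPM in MedLow (log2 fold change -0.69, SE 0.13, adjusted p = 0.0052). Mt2 had 709.6, 649 and 683 CPM in Low and 376, 413 and 340.1 CPM in MedLow (adjusted p = 0.055, and 0.037 with the block). Mt3 and Mt4 were not called (adjusted p = 0.26 and 0.79), at 28.2 ± 3.46 and 538 ± 62.1 CPM in Low and 9.37 ± 2.37 and 697 ± 98.2 CPM in MedLow. The cationic amino acid transporter Slc7a1 fell by 1.13 (adjusted p = 5.5e-06), from 408 ± 12.4 to 186 ± 17.7 CPM.

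Cell cycle genes showed little change that passed the test. None of 18 S phase genes was called, with a median of 0.10. Of 19 G2 and M phase genes 2 rose, beside 3.96% of all genes, with a median of 0.46. All 19 had log2 fold changes above 0, and MedLow libraries lay above Low libraries for 12, beside 27.4% of all genes without overlap. The count of 2 was 0 without Low 1, 1 without Low 3, MedLow 1, MedLow 2, MedLow 3, HiMed 2, HiMed 3 or High 2, 5 without High 1 and 7 without High 3. It was 9 in the 6 libraries alone, 5 with DESeq2 and 4 with limma-voom. With RLE scaling, library size only or limma on either log2 TPM it was 1. The mitotic kinase Aurka had 11.1, 17.4 and 14 CPM in Low and 24.8, 27.3 and 27.2 CPM in MedLow (log2 fold change 0.90, SE 0.19, adjusted p = 0.0093), a call lost without Low replicate 1 (0.053). The proliferation marker Mki67 had 471, 594 and 518 CPM in Low and 522, 601 and 536 CPM in MedLow and was not called (adjusted p = 0.88). Of 7 cell cycle inhibitors (median 0.20, -0.15 to 0.22 under the alternatives), 16 glycolysis genes (median 0.02, -0.01 to 0.06 under the alternatives) and 13 genes encoded by mitochondria (median 0.15), none was called. However, 1 inhibitor was called higher without Low replicate 2, without HiMed replicate 1 or with the replicate block, and 1 glycolysis gene without High replicate 3. The 20 immediate early genes, which cell dissociation is known to induce, gave 3 calls lower and none higher. That stood beside 2.50% and 3.96% of all genes, and the list's median was -0.11. With the replicate block 1 was higher, Egr3 (adjusted p = 1.9e-04, against 0.37 without it). Calls of lower genes numbered 0 without Low 1, 1 without Low 3, MedLow 1 or MedLow 3 and 5 with the replicate block.

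Signals to immune cells differed gene by gene. Of 15 chemokine and interleukin genes tested, 3 rose and 1 fell, beside 3.96% and 2.50% of all genes, with a median of 0.27. The higher count was 5 with the replicate block, and the lower count 0 without Low 1, MedLow 2 or MedLow 3, 2 without High 2 or High 3 and 2 with the replicate block. Il33, an alarm cytokine of epithelia, had 22.1, 25.1 and 35.3 CPM in Low and 157, 114 and 178 CPM in MedLow (log2 fold change 2.44, SE 0.22, adjusted p = 7.3e-05). Il1rn, which blocks the interleukin-1 receptor, had 28.2, 24.4 and 33.4 CPM in Low and 62.8, 50.3 and 67.9 CPM in MedLow (log2 fold change 1.07, SE 0.20, adjusted p = 0.0060), a call lost with limma on log2(TPM + 1) (0.052) and with limma on log2(TPM + 0.1) (0.052). Both were higher in each MedLow library than in any Low library. The chemokine Ccl6, made by myeloid cells, had 7.86, 15.7 and 12.7 CPM in Low and 0, 0.0726 and 0.237 CPM in MedLow (log2 fold change -6.84, SE 0.93, adjusted p = 9.1e-04). Of 13 interferon response genes (median -0.30, -0.70 to 0.17 under the alternatives) Irf7 fell (log2 fold change -0.94, SE 0.21, adjusted p = 0.014), a call lost without Low replicate 1 (0.094), without MedLow replicate 2 (0.068), without MedLow replicate 3 (0.057), with limma on log2(TPM + 1) (0.13) and with limma on log2(TPM + 0.1) (0.13), and of 12 antigen presentation genes none was called (median 0.08, -0.09 to 0.43 under the alternatives). Without Low replicate 1, however, 3 of the 12 were called higher, B2m, H2-D1 and H2-K1 (adjusted p = 0.0090, 0.036 and 0.041), and 1 was called lower without High replicate 1 or High replicate 3.

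Several of the largest falls were of genes of salivary or other secreted proteins. Dcpp2, a protein of salivary mucous cells, had 12.3, 10.3 and 9.81 CPM in Low and 0, 0 and 0 CPM in MedLow, and it was at least 426-fold lower in MedLow against a floor of 3 counts over that bin's libraries (adjusted p = 0.037). Its call was lost without single libraries (6 of them, including all 6 of Low and MedLow, adjusted p 0.098 to 0.12), with no filter on low counts (0.13) and with replicate block (0.076), and its relatives Dcpp1 and Dcpp3, which could share its reads, were not called (adjusted p = 0.15 and 0.085). Coagulation factor F5 had 10.2, 39.7 and 25.9 CPM in Low and 0.231, 0.436 and 0.790 CPM in MedLow (log2 fold change -5.70, SE 0.90, adjusted p = 0.0037). The granule protein Gp2 had 22, 38.2 and 30.6 CPM in Low and 1.11, 3.73 and 2.74 CPM in MedLow (log2 fold change -3.58, SE 0.55, adjusted p = 0.0026). No library of one bin reached the other for these 3 genes. Beside them, the gland markers Bpifb1, Lipf and Amy1 had 92.8, 64.3 and 9.35 CPM in Low replicate 1, far below the 596, 433 and 135 CPM of Low replicate 2, and at most 3.87, 2.71 and 0.421 CPM in MedLow. They were not called (adjusted p = 0.084, 0.14 and 0.060), but the replicate block called Bpifb1 and Amy1 lower (adjusted p = 0.014 and 0.017), and without High replicate 2 all 3 were called (adjusted p = 0.012, 0.031 and 0.018). Enpep, a peptidase at the cell surface, fell too (log2 fold change -6.08, SE 1.39, adjusted p = 0.033), a call lost without single libraries (6 of them, including all 6 of Low and MedLow, adjusted p 0.077 to 0.14), with no filter on low counts (0.061) and with DESeq2 (0.10), as did Jakmip2 (log2 fold change -3.10, SE 0.83, adjusted p = 0.048), a call lost without single libraries (10 of them, including all 6 of Low and MedLow, adjusted p 0.052 to 0.20), with no filter on low counts (0.11) and with limma on log2(TPM + 0.1) (0.061).

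Of 8 gland genes tested 2 fell, beside 2.50% of all genes, with a median of -2.72. MedLow libraries lay below Low libraries for 7, beside 27.4% of all genes without overlap. The mucin Muc5b had 58.3, 88.8 and 88.8 CPM in Low and 2.55, 15.4 and 6.63 CPM in MedLow (log2 fold change -3.26, SE 0.75, adjusted p = 0.039). Its call was lost without single libraries (8 of them, including 5 of the 6 of Low and MedLow, adjusted p 0.055 to 0.16), with no filter on low counts (0.063) and with 6 libraries of MedLow and Low only (0.071). The count of 2 was 0 without Low 2, Low 3, MedLow 1 or MedLow 3, 1 without Low 1, HiMed 2 or High 3, 4 without High 2 and 4 with the replicate block.

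Of 6 fibroblast genes 1 rose and 2 fell, beside 3.96% and 2.50% of all genes, with a median of -1.25. The lower count was 1 without Low 1, Low 2, Low 3, MedLow 1, MedLow 2 or MedLow 3. Dcn, decorin, had 587, 629 and 607 CPM in Low and 144, 185 and 99 CPM in MedLow (log2 fold change -2.09, SE 0.43, adjusted p = 0.024), a call lost without single libraries (6 of them, including all 6 of Low and MedLow, adjusted p 0.053 to 0.10). Fbln1, fibulin-1, had 66.7, 70.9 and 57 CPM in Low and 139.6, 126 and 155 CPM in MedLow (log2 fold change 1.11, SE 0.17, adjusted p = 0.0025). The defining fibroblast genes were near 0, with at most 1.73 CPM of Col1a1 and 3.43 CPM of Pdgfra in any of the 6 libraries. The elastic fibre gene Eln had 81.2, 118 and 77.1 CPM in Low and 10.6, 11.8 and 6.47 CPM in MedLow (log2 fold change -3.25, SE 0.67, adjusted p = 0.023), a call lost without single libraries (6 of them, including all 6 of Low and MedLow, adjusted p 0.073 to 0.11) and with DESeq2 (0.10). Fbn2, fibrillin-2, had 12.5, 19.2 and 17.3 CPM in Low and 1.59, 1.52 and 1.47 CPM in MedLow (log2 fold change -3.41, SE 0.26, adjusted p = 8.2e-06). Decorin and both fibre genes were lower in MedLow without overlap, while fibulin-1 was higher.

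Of 7 genes of neurons and Schwann cells 2 fell, beside 2.50% of all genes, with a median of -0.97. Calls of lower genes numbered 0 without Low 3 and 1 without Low 2 or MedLow 3. Sox10, the Schwann cell factor, had 6.40, 5.33 and 9.19 CPM in Low and 0.463, 0.242 and 0.421 CPM in MedLow (log2 fold change -4.21, SE 0.83, adjusted p = 0.0076), a call lost without Low replicate 3 (0.070). No gene was called of 5 for leukocytes (median -1.57), 3 for endothelium (median -0.46), 2 for skeletal muscle (median -2.36, -3.53 to 2.07 under the alternatives), 3 for melanocytes (median -0.03, -0.22 to 0.22 under the alternatives) and 4 for erythroid cells (median -0.51). The replicate block called 1 leukocyte gene lower. Of 4 Merkel cell genes 1 rose and 1 fell, beside 3.96% and 2.50% of all genes (median -0.09, -0.21 to 0.05 under the alternatives). The gene that rose was Sox2, whose reporter set the bins, so its call describes the sort. Piezo2, a mechanically gated channel, fell. The call of Piezo2 (log2 fold change -0.67, SE 0.17, adjusted p = 0.026) was lost without Low replicate 1 (0.057), without Low replicate 2 (0.11), without Low replicate 3 (0.073), without MedLow replicate 1 (0.094), without MedLow replicate 3 (0.13), with limma on log2(TPM + 1) (0.30) and with limma on log2(TPM + 0.1) (0.37), and the replicate block called 2 higher, Sox2 and Krt20.

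**Figure D5:**
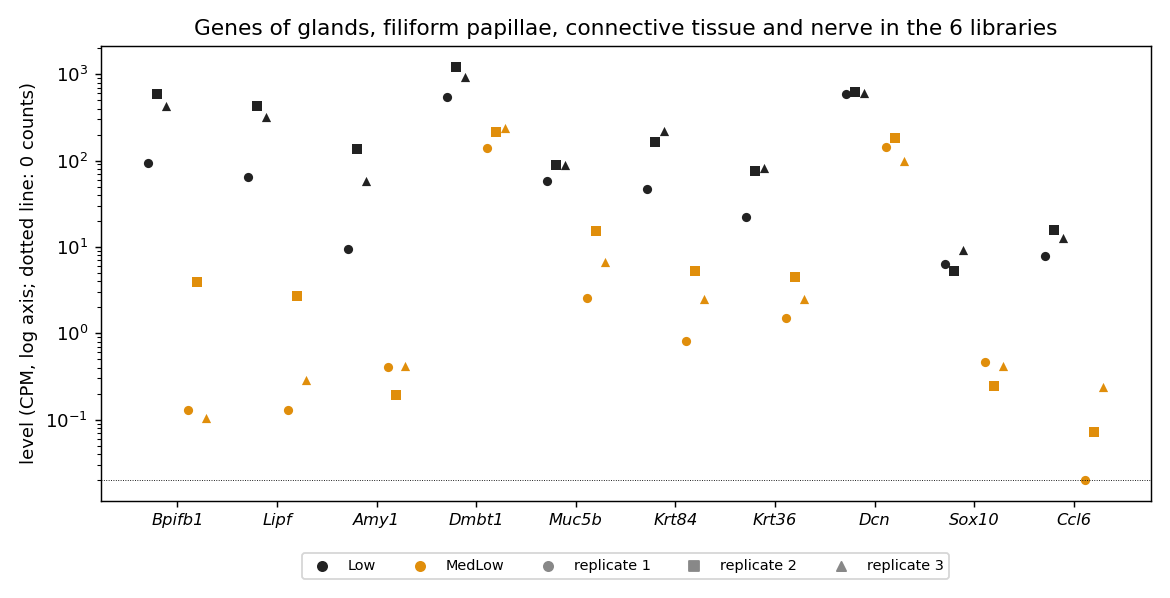
The level of 10 genes of glands, filiform papillae, connective tissue, nerve and myeloid cells is shown in the 6 libraries on a log axis in CPM, with Low in black, MedLow in orange and 0 counts on the dotted line. Low replicate 1 (circles) is the lowest Low library for Bpifb1, Lipf, Amy1, Dmbt1, Muc5b, Krt84, Krt36 and Ccl6, and MedLow stays below Low for all 10.

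Whether a change from Low to MedLow went on at the same pace into the next bin was tested by the step difference, the log2 change from MedLow to HiMed minus that from Low to MedLow. It was called for 505 genes (2.90%), and for 902 with the replicate block. Both changes use the MedLow libraries, and the count was 151 without MedLow replicate 1, 146 without MedLow replicate 2, 257 without MedLow replicate 3, 287 without Low replicate 3 and 299 without HiMed replicate 3. For Ptch1 the difference between the 2 changes did not pass the test (step difference 0.08, SE 0.27, adjusted p = 0.96). Gli1 rose less in the second step (step difference -1.60, SE 0.28, adjusted p = 0.013), to 279 CPM in HiMed, a call lost without MedLow replicate 1 (0.071), without MedLow replicate 2 (0.057), with limma on log2(TPM + 1) (0.058) and with limma on log2(TPM + 0.1) (0.054). Krt4 had a mean of 9474 ± 806 CPM in MedLow and 7542 ± 3598 in HiMed (step difference -3.20, SE 0.54, adjusted p = 0.017), a call lost without Low replicate 3 (0.050), without MedLow replicate 1 (0.083), without MedLow replicate 2 (0.075) and without MedLow replicate 3 (0.069).

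Several genes were lower in MedLow than in the bins on both sides, and those given below are examples. Of 126 genes called lower with a step difference called, 106 had MedLow means below both neighbours. Of 121 called higher with a step difference called, 73 had MedLow means above both. The 2 tests use the same MedLow values, so the step difference is not separate evidence of such a dip. Runx2 averaged 111 ± 6.16 CPM in Low, 32.3 ± 1.07 in MedLow and 57 ± 5.82 in HiMed (step difference 2.60, SE 0.16, adjusted p = 8.3e-07). Fbn2 averaged 16.3 ± 3.48, 1.53 ± 0.0604 and 38.3 ± 9.59 CPM (step difference 8.05, SE 0.50, adjusted p = 1.1e-05). Notum averaged 28.1 ± 3.77, 4.36 ± 1.18 and 46.4 ± 11.3 CPM (step difference 6.10, SE 0.46, adjusted p = 1.6e-04). In these 3 the MedLow libraries lay under all Low and HiMed libraries. Tcf7 (step difference 1.94, SE 0.23, adjusted p = 5.8e-04), Fgfr1 (step difference 1.76, SE 0.17, adjusted p = 9.8e-05) and Fst (step difference 2.84, SE 0.30, adjusted p = 5.1e-04) had the same order of means, and Krt18 averaged 199 ± 30.3, 95.5 ± 17.2 and 215 ± 17.5 CPM (step difference 2.23, SE 0.35, adjusted p = 0.0080). Irx4 fell faster in the second step, from 15.8 ± 2.77 to 0.404 ± 0.140 CPM (step difference -3.46, SE 0.34, adjusted p = 2.1e-04), a call lost with limma on log2(TPM + 1) (0.085) and with limma on log2(TPM + 0.1) (0.055).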

How the data were processed

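RNA was sequenced from 12 libraries, 3 for each of 4 bins, and the 3 MedLow libraries were compared with the 3 Low libraries. The authors deposited expected counts per gene symbol and TPM, made with Salmon 1.4.0, and the submitters' processing notes also name DESeq2 1.28.1 and mm39. For the annotation and the use of strand, nothing is given in the sources used here. Between 8.24% and 13.0% of all expected counts of a library, counts of 0 included, were not whole numbers, and all were rounded. Of 52670 symbols, 17432 passed edgeR's filterByExpr with a minimum count of 10, and the 35238 left out held 0.034% of the counts. Totals ran from 25.67 to 55.58 M counts per library. Since expected counts share reads between transcripts, related genes are uncertain, and so are genes that overlap or lie antisense.

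The fit used R 4.3.3 and edgeR 4.0.16: TMM scaling, 1 term per bin over 12 libraries, which share 1 estimate of the spread, a robust quasi-likelihood fit, and Benjamini-Hochberg adjustment with calls at 0.05. It was tested on simulated counts with known changes in MedLow alone. Those counts had no other differences between bins and no pairing by number, so they do not cover these features of the data. Alternatives were other scalings and filters, DESeq2 1.42.0, limma 3.58.1 on voom weights and on log2 of the deposited TPM plus 1 or 0.1, the 6 libraries alone, a replicate block, leaving out each library and, chosen after seeing the data, a fit that was not robust. A bin with 0 counts was given a floor of 3 counts over its 3 libraries, for counting error only.

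Same-numbered Low and MedLow libraries deviated together from their bin means over 9650 genes (correlations 0.198 to 0.229 in 3 of 3 pairs). These libraries were therefore taken as paired by number in the replicate block only, from the data and not from the labels. The main fit, which gave the calls above, leaves this pairing out (1127 genes called, and 1516 with the block). Between other numbers the correlations were -0.131 to -0.099. These are not separate evidence, because deviations from a bin mean cancel within the bin. Over all bins 15 of 18 pairs were above 0.1.

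The genes and the 39 lists (554 symbols, 552 in the table, 508 tested) were chosen with earlier results of these data known. Named were Sox2, eGFP and a fixed set of keratins, signalling genes and markers, up to 12 genes per direction with the largest change (called, no overlap of libraries, 10 CPM or more in the higher bin, not clone names), up to 5 more by adjusted p, up to 6 called members per list and other members by value. Tmprss11a, Tmprss11f, Wnt9a, Nkd2, Rn18s and the promoter motif were chosen after their values were seen. Promoters are RefSeq's on GRCm38.p6, a different build from mm39. Some genes that the naming rule takes are not reported here.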

Additional observations from a re-analysis of the deposited data

How the results depend on the processing

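No named or listed gene that was called changed direction under any alternative. Genes not called and 12 of the 39 list medians did under at least 1, and the other called genes were not checked. Of 149 named or listed genes called, 77 kept the call under every alternative and 72 lost it under at least 1, while 115 genes not called were called under at least 1. DESeq2 gave 742 genes lower and 1022 step differences. The 6 libraries alone gave 1806 genes, 821 of them lower. With the replicate block, which uses the pairing of libraries by number, 902 step differences were called. In that fit Dcpp2, Sprr2a1 and Top2a lost their calls (adjusted p = 0.076, 0.060 and 0.064), 58 named genes gained one, and no other named gene changed. Limma on log2(TPM + 1) gave 704 genes, 386 of them higher, and 82 step differences, and on log2(TPM + 0.1) 663 genes, 400 higher and 263 lower, and 69 step differences. Without single libraries the count of genes ran from 669 to 1335, of higher genes from 437 to 827, of lower genes from 220 to 518 and of step differences from 146 to 681. The causes were not tested. At an unadjusted p under 0.05, 2985 genes differed. The share of calls that were higher was 61.3%, and 58.5% and 58.9% with RLE scaling and with library size alone. Depth limits genes near the floor of 3 counts, 0.0254 CPM in MedLow and 0.0284 CPM in Low.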
